A study of Mus musculus with 4 samples.

Results

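The genes described are 43 genes that sense and repair DNA double-strand breaks, taken by name from the 45706 genes of a count table of mouse embryonic stem cells. They were chosen by function, as 11 genes of damage signalling, 11 of end joining, 16 of homologous recombination, 3 of the Fanconi pathway and 2 of damage tolerance and nucleotide supply (Polk and Rrm2b). All 43 were found in the table, and all 43 passed the filter on low counts that left 18005 genes for testing. Messenger RNA was sequenced from V6.5 cells in 2 libraries at 0 h and 2 at 24 h, the 2 replicates of each time being called A and B. The 0 h libraries are labelled KLF WT, and the 24 h libraries KLF KO, with a knockout of KLF4 in their titles. Every title carries the name TKO. The cells were infected with a lentiviral vector in which a doxycycline-inducible promoter drives Cas9 together with GFP. The same vector carried guide RNAs for Klf4 only or for all 3 of Klf2, Klf4 and Klf5, and which set each library held is not given in the sources used here. After puromycin selection clones were picked by hand, and those whose knockout was seen by western blot were used. The 2 times are hours of doxycycline in such clones. All groups were cultured in the 2i condition, on irradiated feeder cells with 15% serum, 1000 U/ml LIF and inhibitors of MEK (1 µM) and GSK3 (3 µM). The 24 h libraries therefore differ from the 0 h libraries in doxycycline, Cas9 with its cuts, the state of the Klf genes and time, and these cannot be told apart. The labels do not say which clone gave which library, so p-values measure only the spread between these samples.

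A break in both DNA strands is bound by Ku or by the MRN complex, and the kinases ATM and ATR spread the signal through CHK2 and CHK1. Broken ends are then joined directly, by the classical ligase IV route or by an alternative route that uses PARP1 and polymerase theta, or they are cut back and copied from the sister chromatid by homologous recombination. Cas9 makes such breaks at its target sites. Mouse embryonic stem cells spend much of their cycle in S phase and are known for a high use of homologous recombination, which needs a sister chromatid.

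Library totals were 46031578 to 52412844 counts, and 3 counts correspond to 0.0593 to 0.0641 CPM (counts scaled to the library's TMM-adjusted size). Replicate A at 0 h stood apart from the other 3 libraries. Its deviation from the mean of all 4 correlated with GC content over 14314 genes (r = 0.588, against -0.229 to -0.321 in the others). Each gene's deviations cancel across the libraries, so a positive trend in A brings negative ones in the others. Test results are therefore also given with the trend in GC content and transcript length removed from each library, except for the Klf genes. The trend was fitted to every library and not to A alone. Any difference between the times that follows GC content or length is thus removed with it. The genes named for the guides did not pass the test at 24 h, which reads RNA and neither the cut nor the protein. Klf4 was at 331.4 and 257.0 CPM at 0 h and 244.4 and 235.7 at 24 h (adjusted p 0.223 by the quasi-likelihood test of edgeR), a log2 ratio of -0.29. Klf2 was at 231.9 and 123.5, then 147.3 and 152.5 CPM (-0.25, adjusted p 0.58). Klf5 was at 430.9 and 294.3, then 225.9 and 215.6 CPM, so that its groups did not overlap (-0.72, adjusted p 0.0567), a larger log2 ratio than that of any of the 43 genes. The labels' cell type matched its markers, with Pou5f1 at 767.2 CPM, Sox2 at 514.0 and Nanog at 1134 on average at 0 h. The 10 stem cell markers summed to 4844 and 4694 CPM at 0 h and to 4296 and 4343 at 24 h, with Lin28a higher and Pou5f1, Utf1 and Zfp42 lower in that test. The 16 feeder fibroblast markers summed to 3730 and 3027 CPM at 0 h and to 3062 and 3020 at 24 h, with Vim higher and Pdgfrb lower. With the GC and length trend removed, 1 stem cell marker was higher and 5 lower. Of the 14 feeder markers that passed the filter and were tested, 2 were then higher and 3 lower, beside 11.6% and 14.2% of all genes. Transcripts of most feeder markers were present, but Fn1 (1988 to 2611 CPM) and Sparc (625.5 to 784.4) made up most of each sum. Col1a1 was at 59.63 to 90.08 CPM. Lower were Col3a1 (6.756 on average at 0 h), Postn (4.787), Tagln (4.726), Thy1 (4.287) and Pdgfra (1.442). Lum had no count in 3 of the libraries and Dcn was at 0.0412 to 0.119. The share of Fn1, Sparc and other markers that came from feeder cells was not tested, nor was its part in the results. In these bulk samples fewer cells of a type and less RNA per cell cannot be told apart.

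Of the 43 repair genes 2 passed edgeR's test at 24 h, which is 4.65% of them, against 6.80% of all genes tested. They were Parp1, which fell, and Polk, which rose, and the other 41 did not pass. Parp1 encodes the enzyme that marks broken DNA with poly(ADP-ribose) and draws in repair proteins such as XRCC1. Polk encodes polymerase kappa, which copies past damaged bases. One direction at a time, 1 of 43 was lower, with 2.65% of all genes, and 1 of 43 was higher, with 4.15%. The median log2 fold change of the 43 was 0.06, against -0.01 for all genes tested, and the median size of the change was 0.15 against 0.25. The standard errors of the members' log2 fold changes lay between 0.09 and 0.20, and those of all genes tested between 0.09 and 1.99. The median sizes were therefore not compared at like precision.

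The promoter windows of these 2 genes are shown because they are the members that passed the test and because the guides are directed at KLF factors, which together with SP factors bind GC-rich boxes. Each window is from RefSeq on GRCm38.p6 and runs from 250 bases before the start to 50 after it. That of Parp1 is chr1:180568641-180568940 on the + strand and that of Polk is chr13:96542530-96542829 on the - strand, both read along the gene. Capitals mark each GC box (GGGCGG on either strand).
Parp1: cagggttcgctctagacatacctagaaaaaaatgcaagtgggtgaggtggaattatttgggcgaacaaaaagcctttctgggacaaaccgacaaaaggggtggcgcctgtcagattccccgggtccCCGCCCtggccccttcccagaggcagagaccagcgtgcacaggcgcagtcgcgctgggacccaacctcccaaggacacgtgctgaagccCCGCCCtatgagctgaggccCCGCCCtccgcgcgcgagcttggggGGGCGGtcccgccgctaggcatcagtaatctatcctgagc
Polk: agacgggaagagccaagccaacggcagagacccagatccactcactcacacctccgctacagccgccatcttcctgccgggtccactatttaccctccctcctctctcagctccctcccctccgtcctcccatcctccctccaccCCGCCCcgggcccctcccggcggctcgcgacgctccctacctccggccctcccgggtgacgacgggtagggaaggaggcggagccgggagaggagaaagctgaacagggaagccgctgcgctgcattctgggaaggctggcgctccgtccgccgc
The Parp1 window held 4 GC boxes and the Polk window 1. Neither held GGGNGTG, the run taken here as the KLF core, or the E2F core TTTNNCGC on either strand. Shorter or looser KLF runs were not searched, and GGGTG stands in both windows, so no lack of KLF sites is read from this. RefSeq windows were matched by symbol for 33 of the 43 genes, using the window nearest the GENCODE start where there were several. The Xrcc6 window lay 28533 bases from that start and adds to the count of each motif. A GC box stood in 23 of the 33 (69.7%), against 35.6% of the 32817 windows of the same length, which include those of noncoding genes. Those windows can include several of a gene and were not matched for GC content. The KLF core stood in 10 of the 33 (30.3%), against 29.1%. The E2F core stood in 8 of the 33 (24.2%), against 5.16%, and 4 of those 8 belonged to the 11 homologous recombination genes with a window. A match is a run of letters and not a bound site, and KLF core and GC box matches can share bases.

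The genes spanned a 245-fold range of level per kilobase of exon at 0 h (CPM divided by the length of the joined exons), with a median of 10.6 at 0 h and of 10.6 at 24 h. Parp1 stood highest, at 183.5 and 173.5 CPM per kilobase at 0 h (178.5 ± 7.09, SD, n = 2) and at 117.7 and 121.0 at 24 h. Xrcc5, which encodes the larger Ku subunit, followed with 91.64 and 113.0 at 0 h and 103.6 and 106.0 at 24 h. Mdc1, the scaffold that binds phosphorylated histone H2AX, had rank 3 with 62.64 and 60.34 at 0 h and 63.15 and 63.53 at 24 h. All 3 held these ranks at both times, and the spread of each at 0 h was smaller than the distance to its neighbours in this order.

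At the low end stood Dclre1c, Rad51b and Rnf8. Dclre1c encodes Artemis, the nuclease that opens hairpins and trims ends, and was at 1.963 and 2.255 CPM per kilobase at 0 h and 2.193 and 2.026 at 24 h. Rad51b, a homologous recombination gene, was at 1.226 and 1.616 at 0 h and 1.554 and 1.519 at 24 h. Rnf8, a ubiquitin ligase recruited by MDC1, was at 0.7398 and 0.7155 at 0 h and 0.6346 and 0.5862 at 24 h. The groups overlapped for Dclre1c and Rad51b, and for Rnf8 both 24 h libraries lay below both 0 h libraries (edgeR adjusted p 0.33). With the longest transcript in place of the joined exons Parp1 and Xrcc5 stayed the highest and Rnf8 the lowest, and 6 of the 43 moved by 5 or more ranks. Mdc1 then had rank 4 at 0 h, behind Xrcc1, and Dclre1c rank 39, above Polq, Rad51b and Nhej1. Rnf8 then stood at 1.576 CPM per kilobase, and 13.2% of its exon bases are shared with another gene on the same strand.

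**Figure D1:**
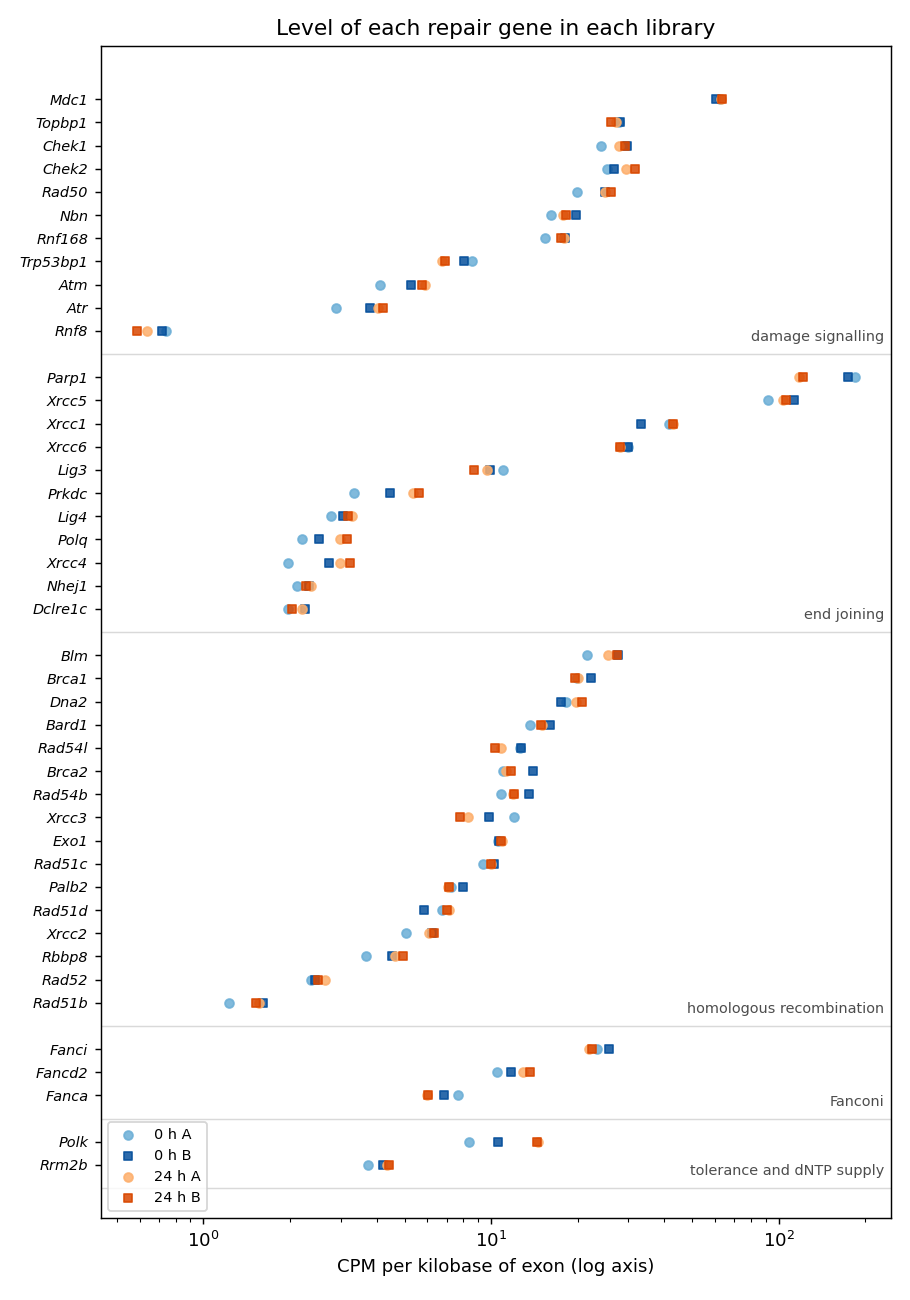
Level of each of the 43 genes per kilobase of exon (CPM per kilobase, log axis) in the 4 libraries, grouped by role and ordered by the mean at 0 h. Parp1 lies highest, at 178.5 on average at 0 h, and its 24 h points sit to the left of its 0 h points, while for most genes the points of both times lie within a narrow band.

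Of the 11 damage signalling genes 0 passed edgeR's test (6.80% of all genes did) and 1 passed 0.05 before adjustment (25.8% of all genes). DESeq2 and limma voom also called 0, beside 11.0% and 6.03% of all genes. Their median log2 fold change was 0.08, 7 being positive and 4 negative. Trp53bp1 encodes 53BP1, which shields ends from resection. It was at 121.6 and 114.0 CPM at 0 h and 95.22 and 97.68 at 24 h. Both 24 h libraries lay below both 0 h libraries, by -0.29 ± 0.10 (SE) on the log2 scale (edgeR adjusted p 0.134). Atm, the kinase that answers breaks, was at 42.58 and 54.65 CPM at 0 h and 61.10 and 59.43 at 24 h. The 24 h libraries lay above, but the 2 libraries at 0 h differed from each other by more than B differed from either at 24 h (log2 ratio of 24 h to 0 h 0.31 ± 0.14 SE, edgeR adjusted p 0.216). Atr, the kinase that answers single-stranded DNA, had the same order, with 68.45 and 89.93 CPM at 0 h and 95.78 and 99.82 at 24 h.

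Of the kinases below them, Chek1 was at 111.9 and 137.3 CPM at 0 h and 129.4 and 135.6 at 24 h, so that the groups overlapped. Chek2 went from 75.98 and 79.97 to 88.21 and 94.63 CPM, a log2 ratio of 0.23 ± 0.10 SE (edgeR adjusted p 0.217). Topbp1, the activator of ATR, had a log2 fold change of -0.07 and Mdc1 of 0.04. The ubiquitin ligase genes Rnf8 and Rnf168 had -0.25 and 0.08. Rad50 and Nbn, which encode MRN subunits, had 0.19 and 0.00, and the groups of both overlapped.

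Of the 11 end joining genes 1 fell and 10 did not pass, beside 6.80% of all genes called, and 3 were under 0.05 before adjustment, beside 25.8%. Parp1 (chromosome 1, 180568924 to 180601254) was at 971.3 and 918.2 CPM at 0 h and at 623.2 and 640.4 at 24 h. The 24 h libraries lay well below the 0 h libraries, and the gap was larger than the distance between the replicates of either time. The means were 944.8 ± 37.5 and 631.8 ± 12.1 CPM (SD, n = 2). On the log2 scale this is -0.58 ± 0.09 (SE), or 0.669 of the 0 h level (edgeR adjusted p 0.0171). With either 24 h library left out (A, then B) edgeR's adjusted p rose to 0.259 and 0.234, at log2 ratios of -0.58 and -0.61. When the GC and length trend was removed as well, these were 0.021 and 0.0107. Such fits take the spread at 24 h from the 0 h libraries. Parp1 took up 20.5% and 18.4% of the counts of all 43 genes at 0 h and 13.4% and 13.6% at 24 h. Of its relatives, chosen after their values were seen, Parp2 had a log2 fold change of 0.18 (edgeR adjusted p 0.383) and Parp3 of 0.24 (0.74).

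The other genes of the alternative route did not pass edgeR's test. Xrcc1 encodes the scaffold that poly(ADP-ribose) recruits. It was at 242.0 and 192.8 CPM at 0 h and 250.2 and 250.8 at 24 h. Replicate A at 0 h lay close to the 24 h libraries and B below them (log2 ratio 0.20 ± 0.13 SE, edgeR adjusted p 0.35, and 0.45 at 0.00208 with the GC and length trend removed). Its partner Lig3, the ligase of this route, was at 80.41 and 72.03 CPM at 0 h and 70.68 and 63.49 at 24 h, a log2 fold change of -0.18. Polq, which encodes polymerase theta, went from 21.27 and 24.46 to 28.90 and 30.58 CPM. Both 24 h libraries were above both 0 h libraries, by 0.38 ± 0.13 (SE) on the log2 scale (edgeR adjusted p 0.128).

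In the classical route Prkdc, which encodes the catalytic subunit of DNA-PK, was at 43.96 and 58.74 CPM at 0 h and at 70.60 and 74.00 at 24 h. The groups did not overlap, and the 0 h libraries were apart by more than the distance from B to 24 h replicate A. Its log2 ratio was 0.49 ± 0.15 (SE), at an adjusted p of 0.102 by edgeR and 0.044 by DESeq2's Wald test. DESeq2 thus called 3 of the 43 (Parp1, Polk and Prkdc), with 11.0% of all genes called, and limma voom 2, with 6.03%. The Ku genes Xrcc5 and Xrcc6 had log2 fold changes of 0.03 and -0.09. Xrcc4 and Lig4, which encode the ligase complex, had 0.40 and 0.15, and Nhej1 (which encodes XLF, a partner of XRCC4) and Dclre1c had 0.06 and 0.00.

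**Figure D2:**
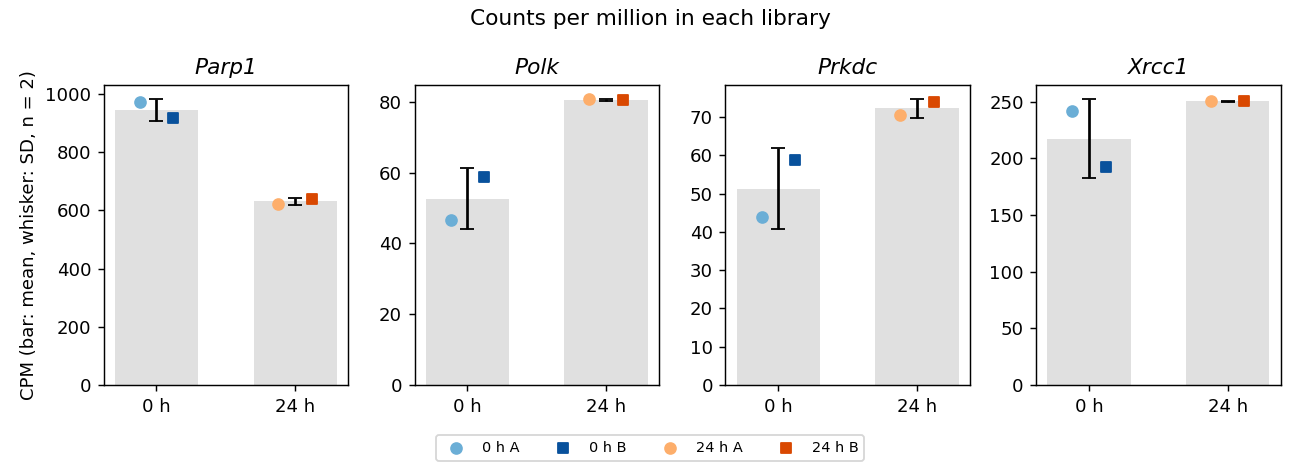
CPM of Parp1, Polk, Prkdc and Xrcc1 in each library (points), with the mean (bar) and SD (whisker, n = 2) at 0 h and 24 h. Both 24 h points of Parp1 lie below its 0 h points and both of Polk lie above, while the 0 h replicates of Polk, Prkdc and Xrcc1 are further apart than their 24 h replicates.

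Of the 16 homologous recombination genes 0 passed edgeR's test and 2 passed 0.05 before adjustment, beside 6.80% and 25.8% of all genes. DESeq2 and limma voom called 0, beside 11.0% and 6.03%. Their median log2 fold change was 0.03, with 10 positive and 6 negative. Xrcc3, whose product acts in a complex with that of Rad51c, was at 32.93 and 27.01 CPM at 0 h and 22.80 and 21.48 at 24 h. Both 24 h libraries were lower than both 0 h libraries, by -0.44 ± 0.14 (SE) on the log2 scale (edgeR adjusted p 0.114). Rad54l encodes the motor protein RAD54, which acts during strand exchange. It went from 96.82 and 98.02 to 83.60 and 79.43 CPM. The groups did not overlap (log2 ratio -0.26 ± 0.10 SE, edgeR adjusted p 0.167).

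Brca1, which directs ends to resection, was at 169.9 and 190.1 CPM at 0 h and 171.5 and 166.6 at 24 h. Brca2, which acts with PALB2 after resection, was at 150.5 and 190.7 at 0 h and 153.2 and 160.4 at 24 h. In both genes the groups overlapped, and the log2 fold changes were -0.09 and -0.12. Their partners Bard1 and Palb2 had 0.02 and -0.10. The resection genes Rbbp8 (which encodes CtIP), Exo1 and Dna2 had 0.22, 0.03 and 0.18. The genes Rad51b, Rad51c, Rad51d and Xrcc2 had 0.11, 0.03, 0.17 and 0.14. Rad52, which anneals single strands, had 0.10, the second RAD54 gene Rad54b -0.03 and the helicase gene Blm 0.11.

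The 3 Fanconi genes, which act on DNA crosslinks and stalled forks, had log2 ratios of both signs. Fanca, of the core complex, went from 66.95 and 59.89 to 52.33 and 52.85 CPM (log2 ratio -0.27, edgeR adjusted p 0.183). Fancd2 went from 83.36 and 93.14 to 102.4 and 108.3 CPM (0.26, edgeR adjusted p 0.194), and Fanci from 134.9 and 148.7 to 126.5 and 129.1 (-0.15, 0.394). The groups did not overlap for any of the 3, as for 58.8% of all genes tested. In edgeR's test 0 passed (6.80% of all genes), with 1 at an unadjusted p under 0.05 (25.8% of all genes) and 0 in DESeq2 and limma voom. FANCD2 and FANCI act as a pair, and the log2 ratios of their transcripts differed in sign, though neither passed the main edgeR test.

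Polk (chromosome 13, 96480690 to 96542579) was at 46.53 and 58.64 CPM at 0 h and at 80.64 and 80.35 at 24 h. Both 24 h libraries lay above both 0 h libraries, by more than the distance between these. The means were 52.58 ± 8.56 and 80.50 ± 0.208 CPM (SD, n = 2). The log2 ratio was 0.61 ± 0.13 (SE), with an edgeR adjusted p of 0.0428. Leaving out 24 h A or B in turn gave 0.298 and 0.312, and 0.0462 and 0.0295 with the GC and length trend also removed. Leaving out 0 h A moved the log2 ratio to 0.46, and leaving out 0 h B to 0.79. Rrm2b, which encodes a ribonucleotide reductase subunit that supplies nucleotides outside S phase and is known as a p53 target, was at 34.22 and 38.48 CPM at 0 h and 39.67 and 40.43 at 24 h (log2 ratio 0.14, edgeR adjusted p 0.487).

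**Figure D3:**
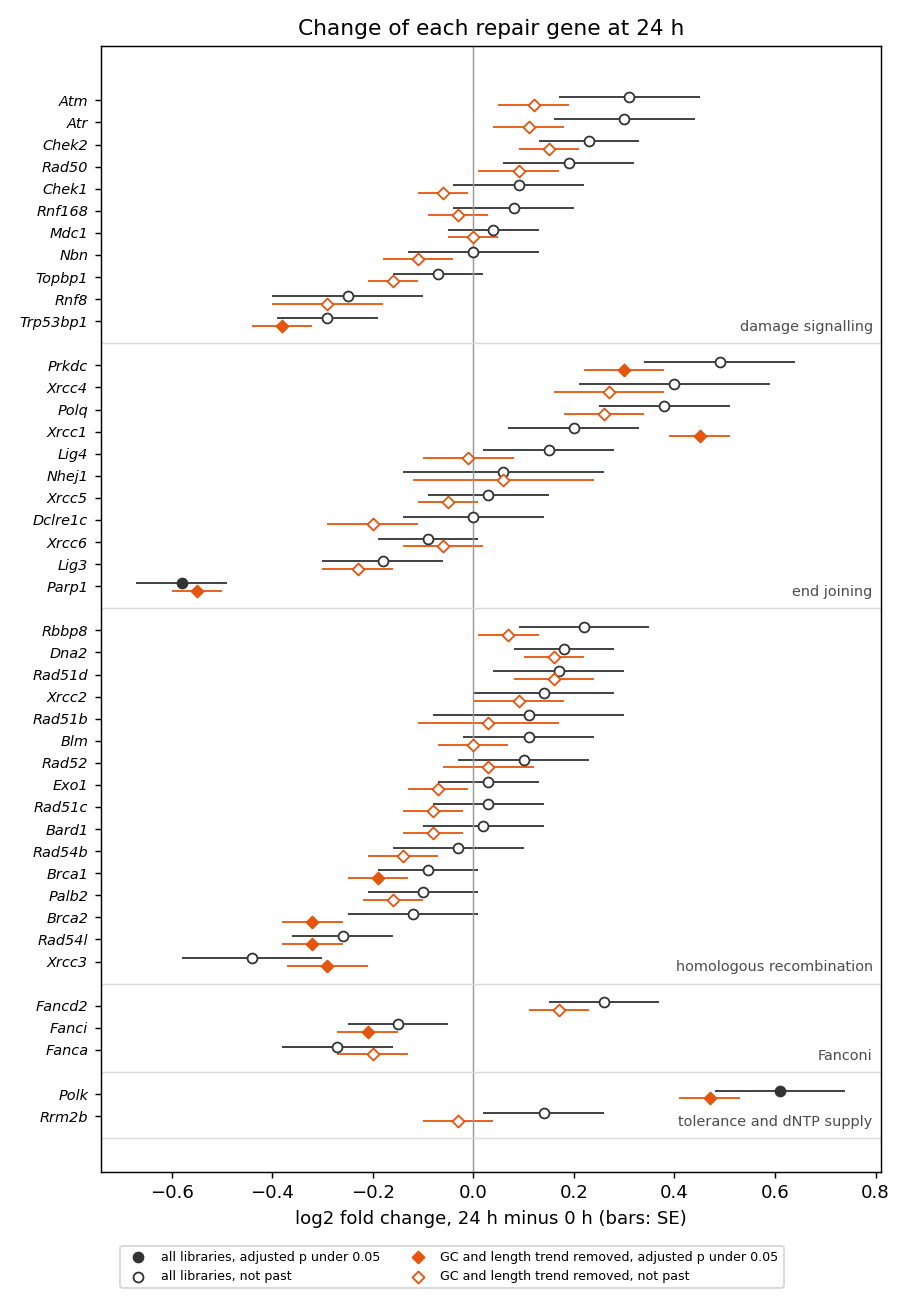
Log2 fold change of each gene at 24 h (bars: SE) with all libraries (circles) and with the GC and length trend of each library removed (diamonds), filled where the adjusted p was under 0.05. Parp1 and Polk are filled in both, and most other genes lie within 0.30 of 0.

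The GC trend of 0 h replicate A was then read in the members. The repair genes had a median transcript GC content of 46.2%, against 49.9% for all genes tested, and 33 of the 43 were lower in A than in B at 0 h. All 16 members with under 45% GC were lower in A, and 6 of the 8 with at least 50% were higher. Over the 43 genes the log2 ratio of A to B at 0 h had r = 0.81 with GC content, against 0.70 over 14330 genes of at least 1 CPM, as a description across genes that share their libraries. Those ratios ran from -0.47 (Xrcc4) to 0.33 (Xrcc1) at 0 h, and from -0.11 to 0.15 at 24 h.

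**Figure D4:**
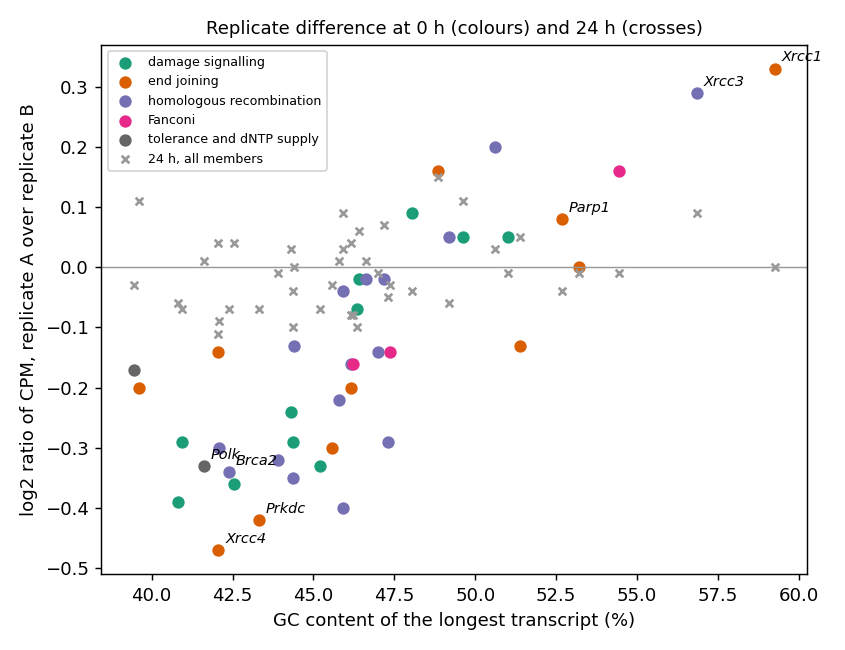
Log2 ratio of CPM in replicate A over replicate B at 0 h (coloured by role) and at 24 h (crosses) against the GC content of each gene's longest transcript. The 0 h points climb with GC content, from -0.47 for Xrcc4 to 0.33 for Xrcc1, while the 24 h points stay between -0.11 and 0.15.

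With the trend in GC content and transcript length removed from each library, edgeR's test called 10 of the 43 genes (23.3%) and 25.8% of all genes tested. Of the 43, 3 were higher (11.6% of all genes) and 7 lower (14.2%). Parp1 (log2 fold change -0.55) and Polk (0.47) were among them in the same direction. Prkdc (0.30, adjusted p = 0.0349 in edgeR) and Xrcc1 (0.45, adjusted p = 0.00208) were the others that were higher. Trp53bp1 (-0.38), Brca2 (-0.32), Rad54l (-0.32), Xrcc3 (-0.29), Fanci (-0.21) and Brca1 (-0.19) were the others that were lower. On that scale Brca2 was at 174.2 and 190.1 CPM at 0 h and 143.2 and 148.6 at 24 h, so that its groups no longer overlapped. The median of the 43 was then -0.03, as was that of all genes tested (-0.03).

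The counts of members depended on which library was left out. With 1 library left out its group has no replicate, and the spread is taken from the pair at the other time. Log2 differences between replicates had an SD of 0.354 at 0 h and 0.175 at 24 h, so these counts rest on unlike spreads. With 0 h A left out edgeR called 19 of the 43 and 32.2% of all genes: 8 members were higher (16.5% of all genes) and 11 lower (15.8%). With 0 h B left out it called 25 and 50.2%: 19 were higher (23.2%) and 6 lower (27.0%). With 24 h A or B left out it called 0 of the 43, beside 3.02% and 2.71% of all genes, and in each fit 2 members were under 0.05 before adjustment. With the trend also removed, the fits without 0 h A, 0 h B, 24 h A and 24 h B called 23, 24, 3 and 3 members, beside 36.7%, 43.7%, 6.88% and 6.99% of all genes. Other scalings and a filter at 1 CPM called the same 2 members, with 7.21% (DESeq2 size factors), 7.73% (library size), 7.51% (upper quartile) and 7.91% (1 CPM) of all genes. With no filter 3 members (Parp1, Polk and Prkdc) and 9.71% of all genes passed. With the replicate letter as a block it was 4 members and 18.1%, and 14 members and 32.6% with the trend also removed. The groups' CPM did not overlap for 28 of the 43 genes (65.1%), against 58.8% of all genes tested, and 8 of the 43 had an unadjusted p under 0.05 (18.6%), against 25.8%.

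Ratios of partners within a library do not depend on library scaling, and 12 pairs were compared per kilobase of exon, with no test. Fancd2 to Fanci stood at 0.449 and 0.456 before doxycycline and at 0.589 and 0.610 after it, and the replicates of each time lay close together. Lig3 to Xrcc1 went from 0.266 and 0.299 to 0.226 and 0.203. Rad50 to Nbn went from 1.23 and 1.26 to 1.41 and 1.44. Atr to Chek1, the kinase and its effector, went from 0.120 and 0.128 to 0.145 and 0.144. In these 4 pairs the groups did not overlap.

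The Ku pair was Xrcc5 to Xrcc6, at 3.06 and 3.77 at 0 h and 3.70 and 3.77 at 24 h, so that 0 h replicate A stood alone. Brca1 to Bard1 was at 1.46 and 1.40, then 1.33 and 1.31. Brca2 to Palb2 was at 1.52 and 1.75, then 1.59 and 1.65. For Rad51c to Xrcc3 the values were 0.781 and 1.04 at 0 h and 1.21 and 1.28 at 24 h. Xrcc4 to Lig4, Rnf8 to Rnf168, Rad51d to Xrcc2 and Atm to Chek2 had log2 changes of the ratio of 0.27, -0.34, 0.02 and 0.09. Of the 12 pairs 8 had ratios that did not overlap between the times. The CPM of single genes did not overlap for 58.8% of all genes tested, and the share over ratios of other genes was not computed, so nothing is read from this count. Some pairs differ in GC content (Lig3 48.85% and Xrcc1 59.26%) and others hardly do (Xrcc4 42.05% and Lig4 42.06%). How far the ratios carry the trend of 0 h replicate A was not tested. Fanci shares 16.0% of its exon bases with Polg and Lig3 25.1% with Rffl, both on the other strand.

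**Figure D5:**
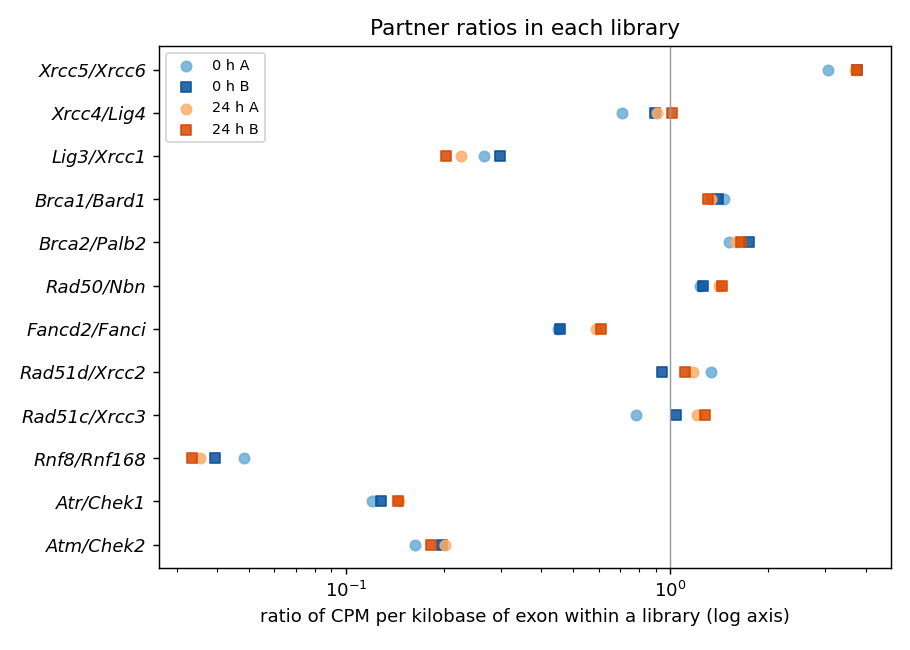
Ratio of CPM per kilobase of exon within each library for 12 pairs of genes whose products act together (log axis). The 0 h and 24 h points of Fancd2 to Fanci are apart, at 0.449 and 0.456 against 0.589 and 0.610, while those of Brca2 to Palb2 are mixed.

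Of 77 other genes of these pathways, all measured, 0 passed edgeR's test and 11 had an unadjusted p under 0.05, beside 6.80% and 25.8% of all genes. DESeq2 called 2 and limma voom 0, beside 11.0% and 6.03%. Their median log2 fold change was 0.01, with 40 positive and 37 negative. DESeq2's calls, chosen here after their values were seen, were 2 genes of the shieldin arm downstream of 53BP1. Shld2 was at 29.04 and 33.80 CPM at 0 h and 44.86 and 45.28 at 24 h (log2 fold change 0.52, adjusted p = 0.0533 in edgeR and 0.0157 in DESeq2). Mad2l2, which encodes REV7, went the other way, from 68.22 and 55.63 to 44.72 and 44.64 CPM (-0.47, adjusted p = 0.0789 in edgeR and 0.0314 in DESeq2). Shld1, another shieldin gene of the list, had -0.08 (edgeR adjusted p 0.81). Once that trend was taken out, 17 of these 77 were called (22.1%, against 25.8% of all genes), 4 higher and 13 lower (11.6% and 14.2% of all genes).

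Transcripts of the cell cycle and of the p53 response were read beside the repair genes, and their part in the values above was not tested. Of 20 S phase genes 0 passed edgeR's test (6.80% of all genes did), and DESeq2 and limma voom called 0 (11.0% and 6.03%). Before adjustment 7 were under 0.05, all lower. Of all 18005 genes tested 2274 were lower at that threshold, and 25.8% passed it in either direction. Their median log2 fold change was -0.20. With the trend removed it was -0.26, and 12 were lower, beside 14.2% of all genes. Without that removal Mcm5 and Pcna were lowest in p, at -0.41 and -0.35. Among 20 G2 and M phase genes Hmmr alone rose (0.81, edgeR adjusted p 0.029), beside 4.15% of all genes. Cenpe had 0.46, and the median was 0.19. With the trend removed the median was 0.11 and 5 were higher, beside 11.6% of all genes. Of 21 p53 targets outside the members, 10 rose and 0 fell, beside 4.15% and 2.65% of all genes, with a median of 0.52. With the trend removed 12 were higher and 1 lower, beside 11.6% and 14.2% of all genes. Among these targets, without that removal, the immune ligand gene Cd80 rose by 1.52 and the kinase gene Plk2 by 0.86 on the log2 scale.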

How the data were processed

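Messenger RNA of 4 libraries was measured with a stranded kit and single reads of 50 nt, per the labels' protocols. The authors deposited 1 table of whole-number read counts, with Ensembl gene IDs. The submitters' processing notes name TopHat2, HTSeq, DESeq and mm10. Which annotation release and strand setting were used is not given in these sources, so reads of overlapping genes cannot be told apart. This touches the 7 members that share at least 10% of their exon bases with another counted gene (Fanca, Fanci, Lig3, Rad54b, Rad54l, Rnf8 and Trp53bp1).

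Gene symbols, coordinates, exon lengths and GC were read from GENCODE M21 (GRCm38), and promoter sequences from RefSeq (GRCm38.p6). Genes were kept with filterByExpr (minimum count 10, minimum total 15), scaled by TMM and tested by quasi-likelihood F-test in edgeR 4.0.16 (R 4.3.3, 2-sided, Benjamini-Hochberg over all genes, threshold 0.05). Only the main edgeR test was tried on simulated counts, which held no GC trend. Alternatives were other scalings, filters and tests (DESeq2 1.42.0, limma 3.58.1), the replicate letter as a block, each library left out, and offsets removing a spline trend (5 degrees of freedom) in GC content and length. The offsets combined with left-out libraries, and the motifs, were added after seeing the data. Depth was 46031578 to 52412844 counts, and intervals of 3 counts cover counting error only.

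The members and lists were chosen with earlier results of these data known. Per-library values are given for members past the test, for the 2 of each role with the smallest p otherwise (all where a role has 3 or fewer) and for the 3 highest and 3 lowest per kilobase. Partners of these genes and members that passed in an alternative are also given so, chosen after their values were seen. Of other lists up to 2 genes in order of p are named. Figures were drawn with matplotlib 3.10.9.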

Additional observations from a re-analysis of the deposited data

How the results depend on the processing

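Parp1 kept its sign and its call, and Polk likewise, under every alternative except the fits that left out 24 h A or 24 h B without removing the GC and length trend. The numbers of genes past the test moved most. With all libraries and the settings of the report they were 1225 for all genes, 1 for higher members, 1 for lower members, 0 for higher other pathway genes, 0 for lower other pathway genes, 0 for S phase genes, 1 for G2 and M phase genes and 10 for p53 targets. With DESeq2's Wald test the values were 1987 for all genes, 2 for higher members, 1 for higher other pathway genes and 1 for lower other pathway genes. With no filter the values were 2589 for all genes, 2 for higher members, 1 for higher other pathway genes, 3 for lower other pathway genes, 2 for S phase genes and 2 for G2 and M phase genes. With library-size scaling the values were 1 for higher other pathway genes. With upper-quartile scaling the values were 1 for higher other pathway genes. With the replicate block the values were 3253 for all genes, 2 for higher members, 2 for lower members, 3 for higher other pathway genes, 5 for lower other pathway genes, 2 for S phase genes and 3 for G2 and M phase genes. With the GC and length trend removed the values were 4654 for all genes, 3 for higher members, 7 for lower members, 4 for higher other pathway genes, 13 for lower other pathway genes, 12 for S phase genes and 5 for G2 and M phase genes. With the replicate block and the trend removed the values were 5871 for all genes, 4 for higher members, 10 for lower members, 7 for higher other pathway genes, 16 for lower other pathway genes, 14 for S phase genes, 7 for G2 and M phase genes and 16 for p53 targets. With 0 h A left out and the trend removed the values were 6879 for all genes, 6 for higher members, 17 for lower members, 6 for higher other pathway genes, 24 for lower other pathway genes, 15 for S phase genes, 10 for G2 and M phase genes, 16 for p53 targets and -0.07 for the members' median log2 ratio. With 0 h B left out and the trend removed the values were 8204 for all genes, 13 for higher members, 11 for lower members, 14 for higher other pathway genes, 26 for lower other pathway genes, 18 for S phase genes, 14 for G2 and M phase genes and 18 for p53 targets. With 24 h A left out and the trend removed the values were 2 for higher members. With 24 h B left out and the trend removed the values were 2 for higher members. Over fits that leave out 1 library and keep the trend, the counts ran from 506 to 9416 for all genes, from 0 to 19 for higher members, from 0 to 11 for lower members, from 0 to 27 for higher other pathway genes, from 0 to 25 for lower other pathway genes, from 0 to 17 for S phase genes, from 0 to 15 for G2 and M phase genes and from 4 to 19 for p53 targets, and the members' median log2 ratio from -0.04 to 0.13. Fits that leave out 1 library take the spread from the pair at the other time, so their counts rest on unlike spreads. How much of the range this makes up, and the cause of the other shifts, were not tested.

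No member past the test changed sign. Other members did, by log2 ratio, with sizes of up to 0.19 (Rad50) in the main fit. With the replicate block and the trend removed this held for Chek1 (-0.06), Rnf168 (-0.03), Xrcc5 (-0.05), Lig4 (-0.01), Dclre1c (-0.20), Exo1 (-0.07), Bard1 (-0.07), Rad51c (-0.08), Blm (0.00) and Rrm2b (-0.03). With 0 h A left out and the trend removed this held for Chek1 (-0.08), Mdc1 (-0.05), Rnf168 (-0.07), Rad50 (-0.02), Xrcc5 (-0.14), Nhej1 (-0.04), Dclre1c (-0.16), Exo1 (-0.06), Bard1 (-0.15), Rad51b (-0.10), Rad51c (-0.07), Xrcc2 (-0.03) and Blm (-0.10). With 0 h B left out and the trend removed this held for Chek1 (-0.05), Xrcc6 (0.04), Lig4 (-0.06), Dclre1c (-0.25), Exo1 (-0.10), Bard1 (-0.02), Rad51c (-0.10), Rad52 (-0.01) and Rrm2b (-0.10). With 24 h A left out and the trend removed this held for Chek1 (-0.04), Rnf168 (-0.05), Xrcc5 (-0.04), Lig4 (-0.04), Dclre1c (-0.26), Exo1 (-0.07), Bard1 (-0.08), Rad51c (-0.09), Rad52 (-0.03) and Rrm2b (-0.03). With 24 h B left out and the trend removed this held for Chek1 (-0.07), Mdc1 (0.00), Xrcc5 (-0.05), Dclre1c (-0.12), Exo1 (-0.06), Bard1 (-0.06), Rad51c (-0.06), Blm (-0.04) and Rrm2b (-0.02). With the GC and length trend removed this held for Chek1 (-0.06), Rnf168 (-0.03), Xrcc5 (-0.05), Lig4 (-0.01), Dclre1c (-0.20), Exo1 (-0.07), Bard1 (-0.08), Rad51c (-0.08), Blm (0.00) and Rrm2b (-0.03). With a 1 CPM filter this held for Nbn (0.01). With library-size scaling this held for Nbn (0.05) and Rad54b (0.03). With limma voom this held for Nbn (0.01). With the replicate block this held for Nbn (0.00). With upper-quartile scaling this held for Nbn (0.04) and Rad54b (0.02). With DESeq2's Wald test this held for Dclre1c (0.00). With DESeq2 size factors this held for Dclre1c (0.00). With no filter this held for Dclre1c (-0.02). Over the fits that leave out 1 library and keep the trend, the ranges of those that changed sign were Chek1 -0.05 to 0.24, Rnf168 -0.03 to 0.20, Nbn -0.14 to 0.15, Xrcc5 -0.11 to 0.19, Nhej1 0.00 to 0.12, Dclre1c -0.10 to 0.10, Bard1 -0.09 to 0.13, Brca2 -0.28 to 0.05, Rad51b -0.07 to 0.32, Rad51c -0.04 to 0.09, Rad54b -0.18 to 0.14 and Blm -0.06 to 0.29.

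Replicate letters do not pair the samples by any label, and with 2 pairs the correlation of same-letter deviations is 0.191 for both letters by construction. The replicate block added Prkdc (higher) and Xrcc3 (lower) to the called members. With 2 libraries a group and log2 differences between replicates of SD 0.354 at 0 h and 0.175 at 24 h, the members' median log2 change in size (0.15) was about that of their standard errors (0.09 to 0.20). Levels per kilobase moved by more than the replicate SD in 31 of 43 members with the longest transcript length.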
